A study of Arabidopsis thaliana with 8 samples.

Results

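The EMB genes of Arabidopsis thaliana are named after mutants whose embryos arrest, so each carries the symbol EMB and a number. All genes of the deposited table with such a symbol were taken, ignoring case, which gave 160 of 25198 genes, on chromosomes 1 (38 genes), 2 (30), 3 (26), 4 (23) and 5 (43). No expression value entered this choice. Messenger RNA was sequenced from whole seedlings at day 11, kept on plates at 22 °C with 16 h of light and 8 h of dark, in 8 libraries, 2 for each of 4 genotypes. These were the Col wild type, chr11-/-chr17-/- (chr11/17), rlt1-/-rlt2-/- (rlt1/2) and fha2-/- (fha2), all in the Col background with no treatment named. Plant ISWI complexes slide nucleosomes with CHR11 or CHR17 as motor and RLT1 or RLT2 as a DDT-domain partner, while FHA2 belongs to the proteins with a forkhead-associated domain. The question for each mutant was which EMB transcripts differed from Col. The labels name neither the position of the mutations nor separate plants for the libraries of a genotype, so p-values measure library spread alone, and this spread may be technical.

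EMB genes are a catalogue of functions a plant embryo cannot do without, not a pathway. Many act in the plastid, where a bacterial type of ribosome makes part of the photosynthetic apparatus and a few proteins that the embryo itself needs. Loss of a plastid ribosomal protein, a plastid tRNA synthetase or an RNA-binding pentatricopeptide repeat (PPR) protein therefore often stops the embryo at the globular or heart stage. Other EMB genes encode parts of the cytosolic ribosome, the spliceosome, the proteasome, and the machines of DNA replication and cell division. In seedlings that carry the wild-type EMB gene, these transcripts are measured long after the stage at which their loss is lethal.

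Total expected counts per library lay between 20.962 M and 22.012 M, so 3 counts stood for 0.136 to 0.143 CPM, counts scaled to library size, before the TMM factors below. RLT2 was at 28.2 and 34.1 CPM in Col and 2.19 and 2.21 in rlt1/2. RLT1, listed as HB-1, was only partly lower, at 25.4 and 35.7 CPM in Col and 15.9 and 16.8 in rlt1/2 (log2 fold change -0.90). FHA2 was at 23.5 and 24.4 in Col and 3.05 and 1.01 in fha2. CHR11 was at 47.2 and 46.3 CPM in Col and 73.4 and 69.7 in the chr11/17 libraries, and CHR17 at 17.2 and 22.5 against 22.6 and 22.9, so neither was lower and each direction below rests on the label of the libraries labelled chr11/17. Scaling by TMM factors (0.8407 and 0.8949 in Col, 1.024 to 1.086 elsewhere) mattered here: with total counts instead, the median log2 fold change over all genes moved up by 0.28, 0.28 and 0.25 in chr11/17, rlt1/2 and fha2, and small EMB changes moved with it. Transcripts of light-harvesting proteins and the Rubisco small subunit, 29 genes tested of 30, summed to 213000 and 190000 CPM in Col, 44100 and 33100 in libraries labelled chr11/17, 105000 in each rlt1/2 library, and 133000 and 124000 in fha2. Seed storage transcripts (8 genes) summed to 0.548 and 0.8 CPM in Col, with 4 and 6 of the genes at 0, to 465 and 195 in libraries labelled chr11/17, to 109 and 94.5 in rlt1/2, and to 1.24 and 1.01 in fha2. The part of these shifts in the EMB results was not tested, and in whole seedlings fewer cells of a type cannot be told apart from less RNA per cell.

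As a group the EMB genes were longer and more highly expressed than all listed genes. Their median coding length was 1734 bases with 7 coding exons, against 1083 bases and 4 exons over all listed genes. Their median FPKM (a fragment count per gene length and library size) was 8.38 against 4.66. Among genes that passed the filter on low counts the gap was smaller, 8.59 against 7.16. The annotation text named the chloroplast, plastid or thylakoid for 65 of the 160, 40.6%, against 11.4% of all genes. On the FPKM scale the highest level was that of EMB3136, a plastid ribosomal protein of the L10 family, with 578 over the 4 genotypes. The cytosolic ribosomal genes emb2386, emb2171 and EMB2296 followed with 510.5, 489.8 and 413.6, and EMB3126, of the L1 family of the plastid, with 346.7. At the other end, 4 EMB genes did not pass the filter on low counts. EMB2271, a WD40 protein gene, had 1 count in 1 library, emb2204 had 1 count in each of 2 libraries, EMB2743 at most 6 and the PPR gene EMB2744 at most 10. The other 156 were tested.

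Of the 160 genes, 57, or 35.6%, overlap another listed gene, against 25.4% of all genes. Whether strand was used in counting is not stated, and such reads cannot be assigned with certainty. A log2 fold change was therefore also computed with the counts of both loci added. Such a sum follows the locus with more reads, was not tested and cannot say which locus changed. The clearest case is the PPR gene emb1796, for which Col had 0 counts in each library, chr11/17 had 109 and 87, rlt1/2 had 113 and 38, and fha2 had 12 and 0. With 3 counts over both Col libraries set as a floor, the mean CPM was 53.3-fold that floor in libraries labelled chr11/17. In rlt1/2 the mean was 40.7-fold that floor, from libraries well apart at 4.95 and 1.65 CPM. With the overlapping gene DMS3 added, the log2 values were 0.14 and 0.35.

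The short promoter motifs known from ribosomal protein and plastid protein genes were counted upstream of each gene. Site II, searched as TGGGCC or TGGGCT on both strands in the 250 bases before each annotated start (RefSeq annotation of TAIR10.1), stood before 36.9% of the EMB genes and 20% of the 25197 listed nuclear genes. The telo-box AAACCCTA stood before 9.38% and 4.13%. The 57 tested EMB genes with site II had a median log2 fold change of -0.11 in libraries labelled chr11/17 and the 99 without had -0.07, while over all genes tested the medians were 0.23 and -0.08. In rlt1/2 they were -0.07 and -0.14 for EMB genes.

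In the libraries labelled chr11/17, EMB genes of the plastid translation machinery fell together while most of those of the cytosolic ribosome rose. Of the 156 EMB genes 45 were higher and 67 lower than in Col at a Benjamini-Hochberg adjusted p under 0.05 in edgeR's quasi-likelihood test, or 28.8% and 42.9%. Over all 20866 genes tested the background was 69.1% called, 34.8% higher and 34.4% lower. The total share of EMB genes called, 71.8%, was thus near the background. The median log2 fold change was -0.11, against -0.01 over all genes. With total counts the split turned to 67 higher and 49 lower. Of the 45 and 67 calls, 36 and 55 were kept whichever of the 4 libraries was left out, and 36 and 49 of these also passed with total counts.

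In rlt1/2, 14 EMB genes were higher and 41 lower than in Col (edgeR, same threshold), 8.97% and 26.3% against a background of 37.5% called, 18.7% each way. Leaving out rlt1/2 replicate 1 left 8 and 30, leaving out replicate 2 left 9 and 32, and 7 higher and 27 lower calls were kept without any single library. With total counts 49 were higher and 17 lower. In fha2, 5 were higher and 14 lower against a background of 15.1% called, 6.33% higher and 8.76% lower. The EMB shares were 3.21% and 8.97%, the lower share near the background and the higher share below it. With total counts 50 were higher and 4 lower. All comparisons with Col share the Col libraries. The libraries of mutant and Col did not overlap for 137, 116 and 96 of the 156 EMB genes, against 82.8%, 69.4% and 61.3% of all genes. Of the 156 genes 39 (25%) were called in no mutant, against 23.9% of all genes. The largest single pattern, 31 genes (19.9%) lower in libraries labelled chr11/17 and in rlt1/2 but not called in fha2, held 11.8% of all genes.

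**Figure D1:**
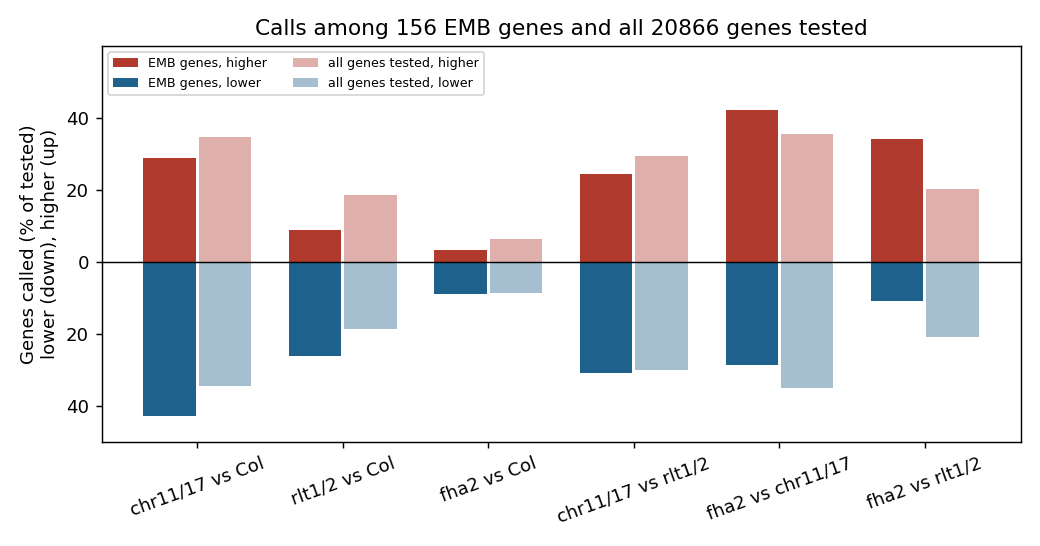
Share of genes called higher (red, upward) and lower (blue, downward) in each of 6 comparisons, in percent of the genes tested, for the 156 EMB genes (dark) and all 20866 genes (pale). EMB genes were called lower more than higher in each mutant against Col, by 42.9% to 28.8%, 26.3% to 8.97% and 8.97% to 3.21%; with total counts each of these orders turned round.

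EMB genes with plastid-related text were mostly lower where they were called, those without were split. Of the 65 with chloroplast, plastid or thylakoid in their text, 38 fell and 11 rose in libraries labelled chr11/17 (median -0.52), 28 fell and 4 rose in rlt1/2 (median -0.24), and 9 fell and 3 rose in fha2. Of the 91 others tested, 29 fell and 34 rose in libraries labelled chr11/17 (median 0.17), and 13 fell and 10 rose in rlt1/2, or 17 and 48, and 3 and 39, with total counts. All 2730 tested genes with such text had 1288 lower and 779 higher in libraries labelled chr11/17 (median -0.26), and 1001 lower and 383 higher in rlt1/2 (median -0.16). In fha2 410 of them were lower and 152 higher, 15% and 5.57%. The 65 EMB genes were near this, with 13.8% and 4.62%. With total counts the plastid-annotated EMB genes had 32 lower and 19 higher in libraries labelled chr11/17, and 14 and 10 in rlt1/2, where the median became 0.04, while in fha2 3 were lower and 17 higher. The text is not exact: it misses the plastid ribosomal genes EMB3113 and EMB3126 and includes a nuclear pore gene.

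**Figure D2:**
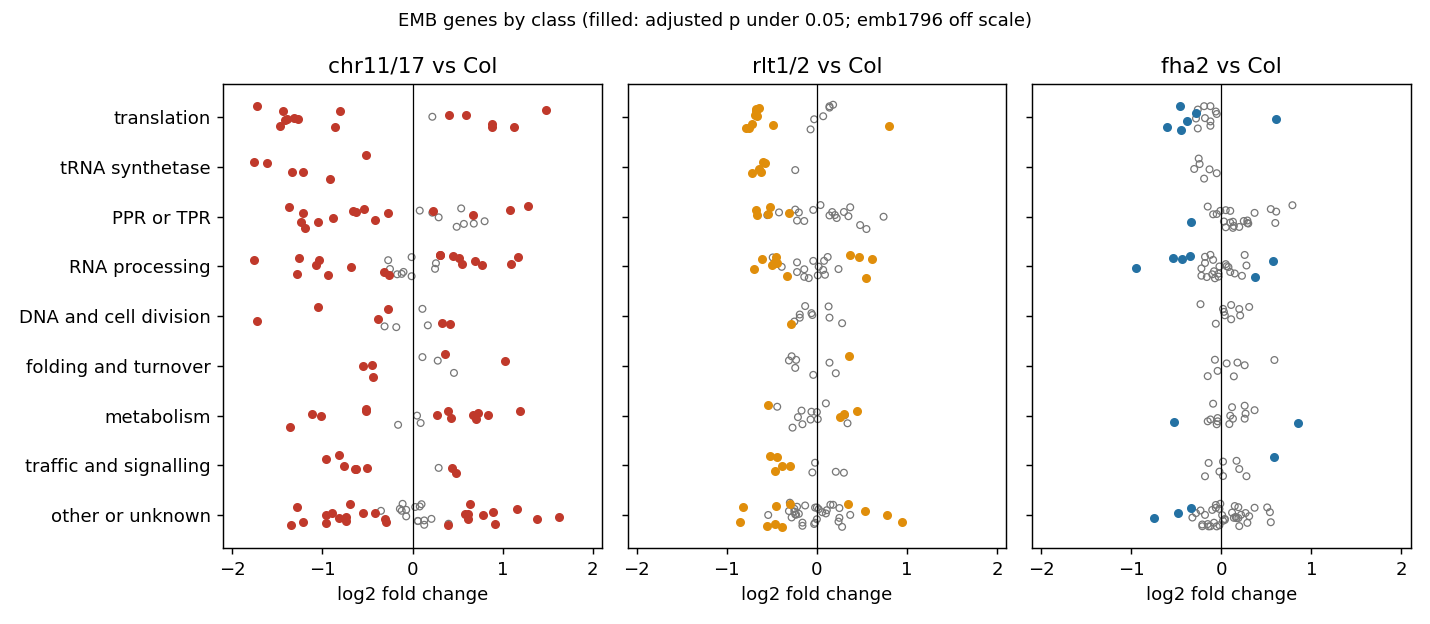
Log2 fold change of each tested EMB gene in the 3 mutants against Col, in 9 classes assigned from product names, with filled points for adjusted p under 0.05 and open points for the rest; emb1796 lies off the scale. All 6 tRNA synthetases and 9 of the 16 translation genes were called lower in the chr11/17 panel, and the fha2 panel has few filled points.

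The 9 EMB genes of plastid translation were called lower in both ISWI mutants. They encode 8 ribosomal proteins and the elongation factor Ts, which recharges the factor that brings tRNA to the ribosome. Their summed level was 4650 and 4190 CPM in Col, 1870 and 1810 in libraries labelled chr11/17, 2780 and 2820 in rlt1/2, with 3520 and 3480 in fha2, so that no library of a mutant reached those of Col. All 9 fell in libraries labelled chr11/17 (median log2 fold change -1.39) and all 9 in rlt1/2 (median -0.67), also without any single library. With total counts the counts were 9 and 8. For the 4 with no overlapping gene, all 4 fell in both, with medians of -1.42 and -0.70.

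The elongation factor gene emb2726 (AT4G29060) was at 299 and 318 CPM in Col, 87.5 and 100.1 in libraries labelled chr11/17, 182 and 193 in rlt1/2, with 280 and 290 in fha2. The first 3 genotypes did not overlap, and the fha2 libraries lay just under Col. Its log2 fold change was -1.72 ± 0.097 (SE, edgeR, adjusted p = 1.14e-08) in libraries labelled chr11/17 and -0.72 ± 0.095 (adjusted p = 9.77e-05) in rlt1/2, and fha2 did not pass the test (-0.12 ± 0.094).

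EMB3136 (AT5G13510), which holds the flexible stalk of the large subunit as an L10 protein, was at 774 and 609 CPM in Col, 240 and 259 in libraries labelled chr11/17, 482 and 499 in rlt1/2, with 494 and 509 in fha2. Every mutant library was below both Col libraries, which were themselves well apart. It fell by 1.47 ± 0.116 in libraries labelled chr11/17 (edgeR, adjusted p = 2.10e-07). In rlt1/2 the fall was 0.49 ± 0.114, a call that ended with total counts (-0.20, adjusted p = 0.117). With its overlapping neighbour added the values were -1.38 and -0.48.

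The large subunit gene emb2394 (AT1G05190), of the L6 family, was at 462 and 461 CPM in Col, 167 and 174 in libraries labelled chr11/17, 288 and 289 in rlt1/2, with 387 and 384 in fha2. The order Col, fha2, rlt1/2, chr11/17 held in every library, and fha2 differed from rlt1/2 by 0.42 ± 0.085 (edgeR, adjusted p = 0.00217). The small subunit gene EMB3113 (AT2G33800), of the S5 family, was at 489 and 408 CPM in Col, 185 and 187 in libraries labelled chr11/17, 260 and 274 in rlt1/2, with 404 and 419 in fha2. Here the fha2 libraries overlapped those of Col. EMB3105 (AT1G48350), of the L18 family, stood apart in its order: 405 and 358 CPM in Col, 228 and 193 in libraries labelled chr11/17, 256 and 234 in rlt1/2, with 256 and 246 in fha2. The rlt1/2 and fha2 libraries overlapped, and rlt1/2 and fha2 were not told apart (log2 difference 0.04 ± 0.107, edgeR, adjusted p = 0.806).

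Over the 9 genes, 7 were lower in libraries labelled chr11/17 than in rlt1/2, and 6 were higher in fha2 than in rlt1/2. In fha2 against Col, 5 of the 9 fell (median -0.28), namely EMB3105, EMB3136, emb1473 of the L13 family, EMB3137 of the S13/S18 family and emb2184 of the L31 family. Only 1 passed with total counts, EMB3105. Leaving out Col replicate 1 or fha2 replicate 1 left 1, leaving out fha2 replicate 2 left 0, and leaving out Col replicate 2 left 4, whereas DESeq2 called 7. Of 44 other plastid-annotated ribosomal proteins tested, 30 fell and 11 rose in libraries labelled chr11/17, 26 fell and 4 rose in rlt1/2, and 21 fell in fha2.

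**Figure D3:**
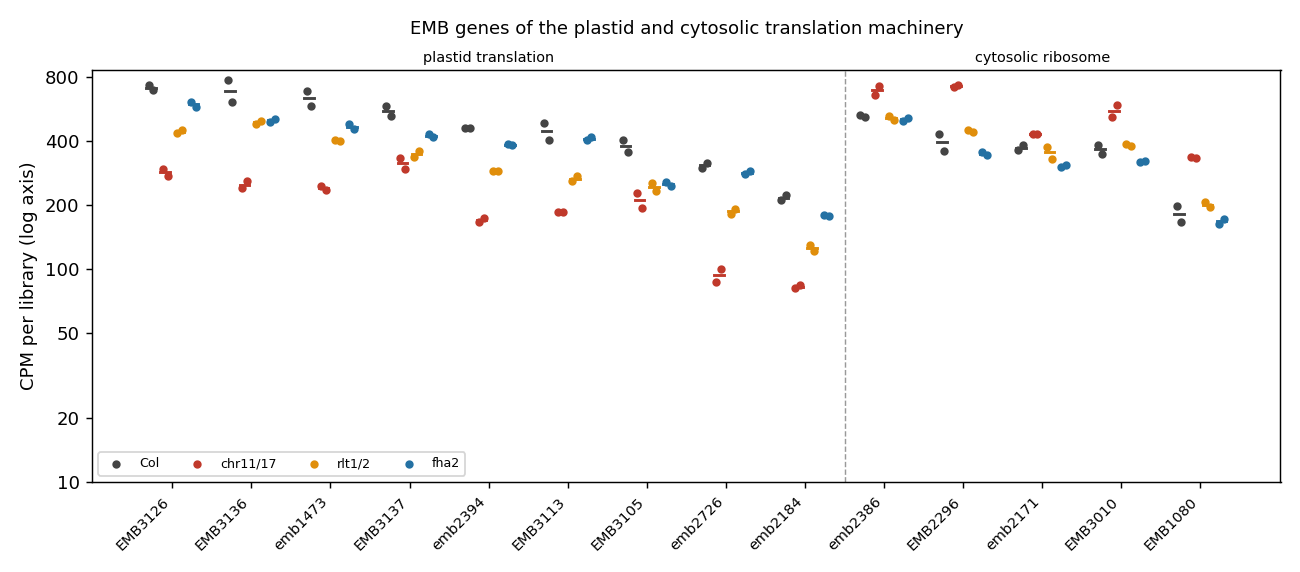
CPM of each library (points, with a line at the mean of 2, log axis) for the 9 EMB genes of plastid translation and the 5 of the cytosolic ribosome, coloured by genotype. The plastid genes are lowest in libraries labelled chr11/17, with a sum of 1870 and 1810 CPM against 4650 and 4190 in Col; for the cytosolic genes those libraries are the highest.

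The 5 EMB genes of the cytosolic ribosome went the other way in libraries labelled chr11/17. Their sum was 1910 and 1780 CPM in Col, 2670 and 2820 in libraries labelled chr11/17, 1950 and 1850 in rlt1/2, with 1640 and 1660 in fha2. EMB2296 (AT2G18020), of the L2 family at the peptidyl transferase centre, was at 432 and 360 CPM in Col and 721 and 733 in libraries labelled chr11/17, and rose by 0.88 ± 0.103 (edgeR, adjusted p = 7.29e-06). EMB1080, emb2386 (L19e) and EMB3010 (S6e) also rose, by 0.88, 0.40 and 0.59, while emb2171 (L14/L23 family) did not pass (0.22 ± 0.094, adjusted p = 0.0557). None passed in rlt1/2 by edgeR or DESeq2, and 0 had an unadjusted p under 0.05, although 4 were higher with total counts and 1 without Col replicate 1. In fha2 0 passed by edgeR, with 1 at an unadjusted p under 0.05, and DESeq2 called 1 lower. Each such protein has close copies in the genome, and how the counting divided reads among them is uncertain. Of 166 other ribosomal proteins annotated as cytosolic, 154 rose in libraries labelled chr11/17, 30 in rlt1/2 and none in fha2, where 45 fell.

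The 6 EMB tRNA synthetases, enzymes that load amino acids onto tRNA, are all annotated to the chloroplast. All 6 fell in libraries labelled chr11/17 (median log2 fold change -1.28, or 5 with total counts) and 5 fell in rlt1/2 (median -0.61, also 5 with total counts). EMB2369 (AT4G04350), a class I synthetase, was at 39.6 and 38.1 CPM in Col, 10.2 and 12.6 in libraries labelled chr11/17, 23 and 24.2 in rlt1/2, with 34.4 and 33.7 in fha2. It fell by 1.76 ± 0.110 (edgeR, adjusted p = 2.47e-08) and by 0.72 ± 0.103 (adjusted p = 1.83e-04), the largest fall of this class in both. EMB2247 was at 53.8 and 54.5 CPM in Col, 17.1 and 18.5 in libraries labelled chr11/17, 34.4 and 35.0 in rlt1/2, with 47.9 and 43.7 in fha2. The alanine enzyme EMB1030 was at 66.2 and 65.7 in Col, 26.1 in each of the libraries labelled chr11/17, 44.4 and 44.1 in rlt1/2, with 60.6 and 59.8 in fha2. For these genes the 4 genotypes formed 4 separate steps with no overlap.

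The smallest fall was that of the arginine enzyme emb1027, by 0.52 ± 0.101 in libraries labelled chr11/17 (edgeR, adjusted p = 5.43e-04), which ended with total counts (-0.23, adjusted p = 0.0852). In rlt1/2 it did not pass (-0.24 ± 0.1). None of the 6 passed in fha2 by edgeR or by DESeq2, with values from -0.30 to -0.05 and 3 at an unadjusted p under 0.05, but 5 of the 6 were higher in fha2 than in rlt1/2. Of 16 other tRNA synthetases with plastid text, 11 fell and 1 rose in libraries labelled chr11/17 (median -0.46), and 11 fell in rlt1/2 (median -0.30). Of 31 without such text, 7 fell and 12 rose in libraries labelled chr11/17 (median 0.01).

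EMB genes for other RNA factors of organelles included some of the largest falls. EMB3114 (AT2G36000), of the mTERF family of organelle gene expression factors, was at 59.9 and 61.5 CPM in Col, 15.4 and 20.3 in libraries labelled chr11/17, 34.9 and 39.9 in rlt1/2, with 54.5 and 52.8 in fha2. It fell by 1.76 ± 0.123 (edgeR, adjusted p = 6.81e-08) and by 0.70 ± 0.117 (adjusted p = 5.67e-04). A second member of that family, EMB93, at 3.12 and 2.88 CPM in Col, fell by 1.07 ± 0.293 in libraries labelled chr11/17. The last of the 3 mTERF genes tested did not pass there (-0.25), and in rlt1/2 only EMB3114 passed. EMB1865, with a CRM domain known from group II intron splicing in plastids, was at 95.0 and 101.3 CPM in Col, 40.1 and 41.8 in libraries labelled chr11/17, 71.1 and 68.0 in rlt1/2, with 92.0 and 91.9 in fha2. Its rlt1/2 call ended with total counts (-0.21, adjusted p = 0.0808). The 3 GTPases EMB269, EMB3129 and emb2738, of families that act in assembling bacterial and plastid ribosomes, fell by 0.96, 0.82 and 0.76 in libraries labelled chr11/17. In rlt1/2 they were called lower by 0.46, 0.30 and 0.39, and none of these 3 calls remained with total counts. That of EMB3129 also ended without Col replicate 1 or rlt1/2 replicate 2.

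The plastid DEAD-box RNA helicase RH3, emb1138 (AT5G26742), differed in sign between mutants. It was at 145 and 141 CPM in Col, 49.6 and 68.0 in libraries labelled chr11/17, 96.2 and 111 in rlt1/2, with 205 and 220 in fha2, so that the genotypes did not overlap and fha2 alone lay above Col. The log2 fold changes were -1.28 ± 0.132 (edgeR, adjusted p = 2.32e-06), -0.46 ± 0.129 (adjusted p = 0.0138) and 0.57 ± 0.128 (adjusted p = 0.0126). The direct difference of fha2 from rlt1/2 was 1.03 ± 0.129 (edgeR, adjusted p = 8.81e-05), the highest of the EMB genes in that comparison. The fha2 call against Col ended without any one of the 4 libraries, and with total counts it was 0.83 (adjusted p = 0.00135). The rlt1/2 call ended without Col replicate 1 or rlt1/2 replicate 1, and with total counts (-0.18, adjusted p = 0.31).

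**Figure D4:**
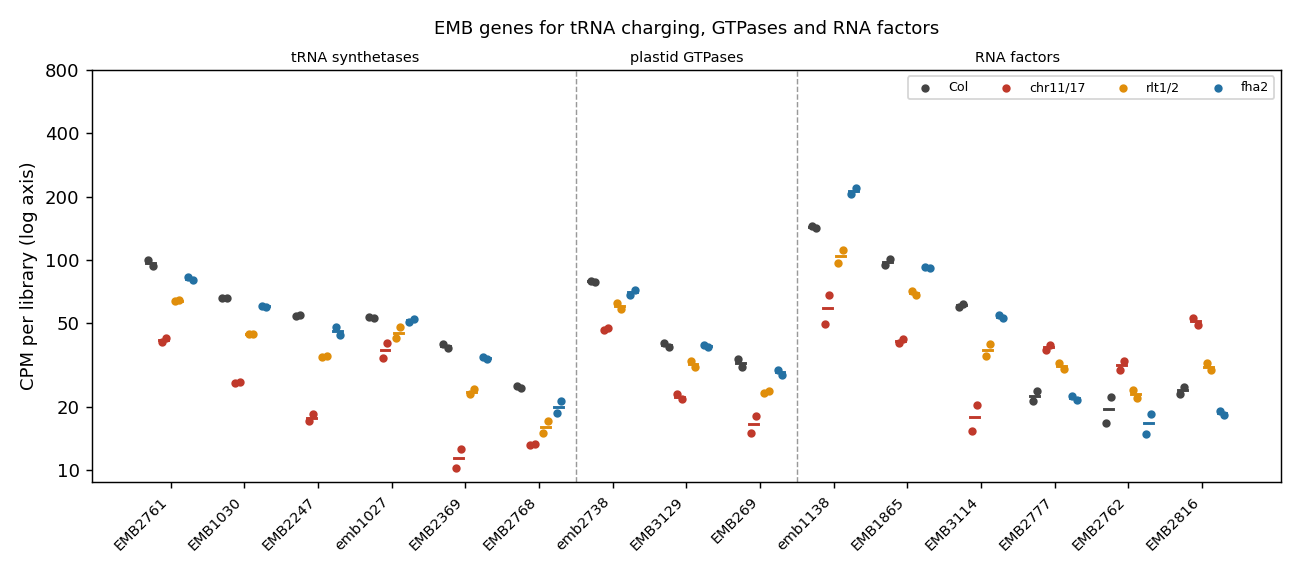
CPM of each library (points, with a line at the mean of 2, log axis) for the 6 tRNA synthetases, the 3 plastid GTPases and 6 RNA factors among the EMB genes, coloured by genotype. The synthetases and GTPases are lowest in libraries labelled chr11/17, emb1138 is highest in fha2 at 205 and 220 CPM, and EMB2777, EMB2762 and EMB2816 are highest in libraries labelled chr11/17.

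PPR and tetratricopeptide repeat (TPR) proteins, most of which bind RNA in organelles, were mixed. Of 24 tested, 11 fell and 5 rose in libraries labelled chr11/17, 5 fell and 1 rose in rlt1/2, and 1 fell in fha2, the last ending without any one of the 4 libraries. In libraries labelled chr11/17 the shares lower and higher were 45.8% and 20.8%, against 34.4% and 34.8% of all genes. In rlt1/2 they were 20.8% and 4.17%, against 18.7% each way. The counts turned with the scaling, to 7 lower and 11 higher, 0 and 6, and 0 and 8. The median log2 fold change of the 24 was 0.15 in libraries labelled chr11/17. For the 14 with no overlapping gene, 4 fell and 3 rose in those libraries, with a median of 0.51. EMB1270 was at 16.2 and 19.5 CPM in Col, 6.03 and 7.74 in libraries labelled chr11/17, 14.5 and 15.8 in rlt1/2, with 20.2 and 18.8 in fha2, and fell by 1.37 ± 0.143 in libraries labelled chr11/17 (edgeR, adjusted p = 2.64e-06), which also lay below rlt1/2 (-1.13 ± 0.143, adjusted p = 2.50e-05). With its overlapping gene added the value was -1.07. EMB1006 fell by 1.24 ± 0.177 in libraries labelled chr11/17 and by 0.68 ± 0.168 in rlt1/2, the latter a call that ended with total counts (adjusted p = 0.0645). EMB2758 rose by 1.28 ± 0.326 in libraries labelled chr11/17, from 1.75 and 0.80 to 3.13 and 3.06 CPM. Of 502 other PPR and TPR genes tested, 136 fell and 98 rose in libraries labelled chr11/17.

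Among all 27 tested RNA processing genes, the organelle factors above included, 9 rose and 9 fell in libraries labelled chr11/17, 33.3% each. In rlt1/2, 4 rose and 8 fell, 14.8% and 29.6%. Over all genes 34.8% rose and 34.4% fell in the former, and 18.7% each way in rlt1/2. With total counts this class had 12 and 7, and 9 and 2. Of its 8 genes of the spliceosome, which removes introns in the nucleus, 4 rose and 1 fell in libraries labelled chr11/17, or 4 and 0 without Col replicate 1 or chr11/17 replicate 1. EMB2816 (AT2G03870), a small ribonucleoprotein of the Sm-like type, was at 23 and 24.9 CPM in Col, 53.1 and 48.9 in libraries labelled chr11/17, 32.1 and 29.9 in rlt1/2, with 19.1 and 18.4 in fha2. The rise was 1.09 ± 0.095 in libraries labelled chr11/17 (edgeR, adjusted p = 4.94e-07) and 0.37 ± 0.096 in rlt1/2 (adjusted p = 0.00894), the latter ending without Col replicate 1 or rlt1/2 replicate 1. In fha2 it was lower, by -0.35 ± 0.099 (adjusted p = 0.0322), but this ended without any one of the 4 libraries and with total counts (-0.10, adjusted p = 0.493). The direct difference of fha2 from rlt1/2 was -0.73 ± 0.097 (edgeR, adjusted p = 1.35e-04). Of 3 tested ribosome assembly genes of the nucleolus, 2 rose in libraries labelled chr11/17 and 1 in rlt1/2. EMB2777 (Sas10/Utp family) rose by 0.77 ± 0.096 and 0.47 ± 0.097 in libraries labelled chr11/17 and rlt1/2. EMB2762, annotated as a CCAAT-binding factor, rose by 0.69 ± 0.140 in the former, where the remaining gene did not pass (0.25). The proteasome lid genes EMB2719 and EMB2107 (RPN5) rose by 1.03 ± 0.099 and 0.36 ± 0.082 in libraries labelled chr11/17. They were the only 2 higher calls there among 8 genes of folding and turnover, 25% against 34.8% of all genes. Of these 8, 3 fell, 37.5% against 34.4% of all genes, among them EMB1241 by 0.55 ± 0.117. EMB2719 was at 48.4 and 39.6 CPM in Col, 88.4 and 90.7 in libraries labelled chr11/17, 55.9 and 56.8 in rlt1/2, with 46.2 and 45.1 in fha2.

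Metabolic EMB genes had 8 higher and 5 lower of 16 in libraries labelled chr11/17, and 3 and 1 in rlt1/2. These shares were 50% and 31.2%, and 18.8% and 6.25%. Over all genes they were 34.8% and 34.4%, and 18.7% each way. The 3 higher calls in rlt1/2 became 2 without Col replicate 1, 1 without Col replicate 2, without either rlt1/2 replicate or with DESeq2, and 7, with 0 lower, with total counts. EMB1144, chorismate synthase at the end of the shikimate pathway, was at 79.6 and 73.5 CPM in Col, 126 and 122 in libraries labelled chr11/17, 81.6 and 71.3 in rlt1/2, with 74.4 and 75 in fha2, and rose by 0.70 ± 0.092 in libraries labelled chr11/17 (edgeR, adjusted p = 2.11e-05). EMB1467, a subunit of the mitochondrial NADH dehydrogenase, rose by 0.73 ± 0.095 and, in rlt1/2, by 0.45 ± 0.095. EMB3119, a ribose 5-phosphate isomerase, fell by 1.01 ± 0.114 and 0.54 ± 0.113, the second ending with total counts (adjusted p = 0.0764). Of 10 genes of DNA and cell division, 4 fell and 2 rose in libraries labelled chr11/17, and 1 fell in rlt1/2. The shares that fell, 40% and 10%, compare with 34.4% and 18.7% of all genes. The spindle pole component gene emb1427, at 20.1 and 21.1 CPM in Col and 10 and 9.82 in libraries labelled chr11/17, fell by 1.05 ± 0.103. It was also the gene called lower in rlt1/2 (-0.29 ± 0.098), a call that ended without any one of the 4 libraries and with total counts. The replication helicase gene emb2411 was called lower (-1.73), yet with its overlapping genes added the value was 1.13.

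Several other log2 values also shifted once the counts of the overlapping gene were added. No test was run on these sums and the level of the neighbour is not given. They do not show whether the EMB change itself was reversed. In that comparison with Col the log2 value in libraries labelled chr11/17 of EMB2421 went from -1.12 to 0.56, that of EMB1687 from 1.17 to -0.56, that of EMB3123 from 0.23 to -1.01 and that of EMB2766 from -0.51 to 0.25. EMB1135 went from -1.35 to -0.05. In contrast EMB2369, EMB2761, EMB3105, EMB3137, EMB1080 and EMB2816 moved by less than 0.05 in that comparison. A neighbour with few reads would also give so small a shift.

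Among genes of other or unknown function, 14 fell and 11 rose of 40 in libraries labelled chr11/17, 35% and 27.5%. Over all genes 34.4% fell and 34.8% rose, so the falls were near the background. With total counts the split turned to 9 and 17. emb1379 went from 1.81 and 1.28 CPM in Col to 5.08 and 4.51, a rise of 1.63 ± 0.253 (edgeR, adjusted p = 8.63e-05). emb2170 went from 3.51 and 4.05 to 10.2 and 9.57 CPM, with 3.29 and 2.86 in rlt1/2 and 3.84 and 3.42 in fha2. Its rise of 1.38 ± 0.167 passed in libraries labelled chr11/17 and not in rlt1/2 (-0.30 ± 0.187), and the direct difference between them was 1.68. Of the genes with at least 10 CPM, emb1703, emb2004, EMB2769 and EMB2799 varied least. EMB2769, of the spliceosomal Cwf15 family, lay between 45.2 and 53.3 CPM in all 8 libraries, and emb1703 between 11.5 and 13.8.

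In fha2 the changes of EMB genes were small and few were stable. No called gene differed by 2-fold from Col. Only emb1211 and EMB3143, of 14 lower calls, passed whichever library was left out, and both also passed with total counts. None of the 5 higher calls passed whichever library was left out, while all 5 passed with total counts. emb1211 (AT5G22640), a MORN-repeat protein of the plastid inner envelope, was at 176 and 209 CPM in Col, 98.6 and 98.9 in libraries labelled chr11/17, 114 and 98.4 in rlt1/2, with 111 and 117 in fha2. It fell by 0.96 ± 0.105, 0.85 ± 0.105 and 0.75 ± 0.105 in the 3 mutants (edgeR, adjusted p = 4.09e-06, 6.02e-05 and 0.00143). The mutants lay together, well below Col.

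EMB3143 (AT5G58250), the YCF54 protein needed for a cyclase step of chlorophyll synthesis, was at 253 and 246 CPM in Col, 176 and 172 in libraries labelled chr11/17, 222 and 226 in rlt1/2, with 172 and 175 in fha2. It fell by 0.52 ± 0.083 in libraries labelled chr11/17 (edgeR, adjusted p = 1.10e-04) and by 0.52 ± 0.083 in fha2 (adjusted p = 0.00266), and did not pass in rlt1/2 (-0.16 ± 0.082, adjusted p = 0.16). It overlaps NdhN, and with both added the values were -0.89, -0.34 and -0.55.

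The genes lower in all 3 mutants were 6 (3.85%, against 3.84% of all genes): emb1211 and 5 plastid ribosomal genes. Higher in all 3 were 2 genes (1.28%, against 2.42% of all genes). They were EMB2785, of an elongation factor family, and emb2746, of an RNA-metabolising metallo-beta-lactamase family. The emb2746 call in fha2 ended without any one of the 4 libraries, and that in libraries labelled chr11/17 without Col replicate 1 or chr11/17 replicate 2. EMB2785 was at 10.2 and 9.54 CPM in Col, 26.4 and 28.6 in libraries labelled chr11/17, 17.4 and 17.0 in rlt1/2, with 13.6 and 16.6 in fha2. It rose by 1.48 ± 0.120, 0.80 ± 0.123 and 0.61 ± 0.125 (edgeR, adjusted p = 2.74e-07, 3.21e-04 and 0.00842), the last ending without Col replicate 2 or fha2 replicate 2. EMB3011, an RNA helicase, fell in fha2 by 0.53 ± 0.117 (edgeR, adjusted p = 0.0116), a call that ended without Col replicate 2 or fha2 replicate 2 and with total counts.

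**Figure D5:**
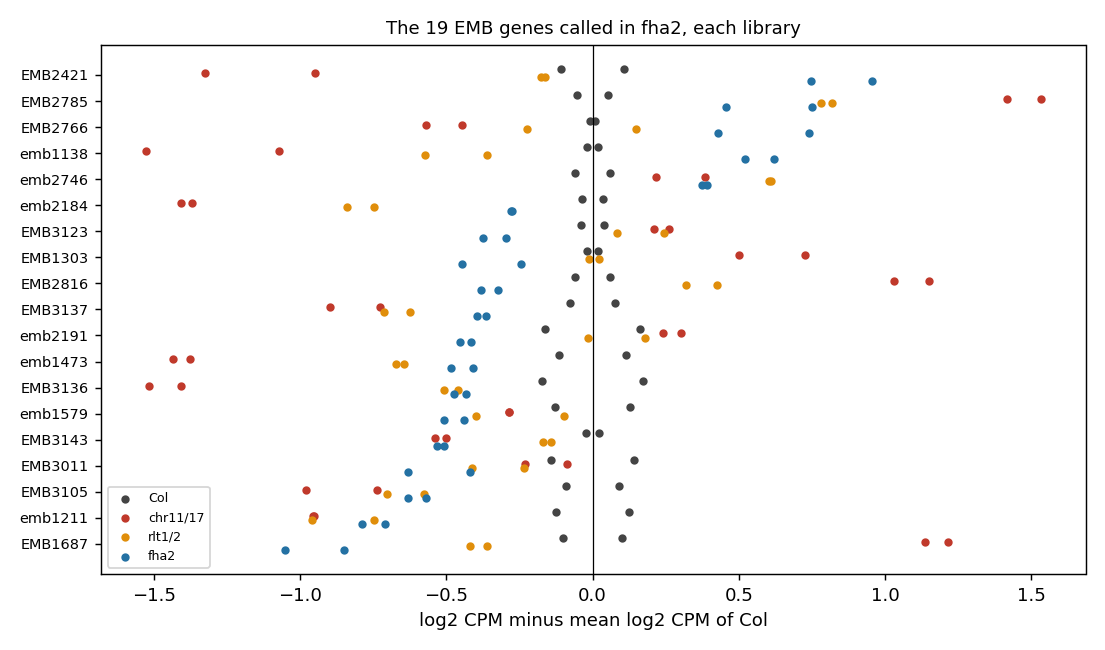
Log2 CPM of each library minus the mean log2 CPM of Col for the 19 EMB genes called in fha2, ordered by their fha2 value and coloured by genotype. emb1138 and EMB2421 lie right of Col in fha2 and left of it in libraries labelled chr11/17, EMB1687 the reverse, and emb1211 lies left in all 3 mutants. EMB2421 and EMB1687 overlap other genes. With the counts of both loci added, the log2 values were 0.02 and -0.27 in fha2, and 0.56 and -0.56 in libraries labelled chr11/17.

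The mutants were also compared directly. Against the libraries labelled chr11/17, fha2 had 66 EMB genes higher and 45 lower (edgeR), with a background of 70.7% called, 35.6% higher and 35.0% lower. Against rlt1/2, fha2 had 53 higher and 17 lower, 34% and 10.9%, with a background of 41.1% called, 20.2% higher and 20.9% lower, and a median of 0.18 against 0.00 over all genes. Without 1 library these counts fell to 33 and 7 (fha2 replicate 1), 26 and 11 (fha2 replicate 2), 25 and 9 (rlt1/2 replicate 1) or 33 and 12 (rlt1/2 replicate 2), and DESeq2 gave 33 and 17. The 53 higher calls included 30 of the 65 plastid-annotated genes, 10 of 24 PPR or TPR genes and 6 of 9 of traffic and signalling, groups that share members. The first 2 shares were 46.2% and 41.7%. Of all plastid-annotated genes 30.8% were higher, and of the other PPR or TPR genes 18.7%. The libraries labelled chr11/17 against rlt1/2 had 38 higher and 48 lower, with a background of 59.4% called, 29.3% higher and 30.1% lower. Libraries did not overlap for 131, 120 and 126 EMB genes in these comparisons, in the order given, against 85.8%, 75.1% and 79.7% of all genes.

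Other named series of seed and embryo mutants serve as a reference, with no test between lists. In the libraries labelled chr11/17, 11 of 16 PDE genes (pigment defective embryo) fell and 1 rose (median -0.59), 11 of 33 tested MEE genes (maternal effect embryo arrest) fell and 13 rose, and 3 of 22 EDA genes (embryo sac development arrest) fell and 10 rose. In rlt1/2, 6 PDE genes fell and 1 rose, 6 MEE genes fell and 6 rose, and 2 EDA genes fell and 7 rose. Over all genes tested 34.4% fell and 34.8% rose in libraries labelled chr11/17, and 18.7% each way in rlt1/2. The MEE shares, 33.3% and 39.4%, then 18.2% each way, were near these. Of the PDE genes 68.8% fell in libraries labelled chr11/17, against 47.2% of all genes with plastid text. In rlt1/2 these shares were 37.5% and 36.7%. In the authors' deposited table of comparisons, the EMB genes with a q-value under 0.05 were 37 higher and 56 lower for chr11/17 over Col, 7 and 31 for rlt1/2, and 3 and 13 for fha2.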

How the data were processed

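Per the file headers, the authors deposited read counts and FPKM values per gene, together with log2 fold changes, p-values and q-values of their own comparisons; these read counts are estimated counts that need not be whole, deposited by the authors without normalization. The submitters' processing notes list Bowtie2, RSEM, DESeq2 and TAIR10, giving neither roles nor versions. They were rounded, filtered with filterByExpr by genotype (20866 of 25198 genes kept) and scaled by TMM. All 8 libraries entered 1 edgeR quasi-likelihood fit (edgeR 4.0.16, R 4.3.3) with genotype as the only term, for 6 comparisons, with Benjamini-Hochberg adjustment over all genes tested and a threshold of 0.05. The script was tested on simulated data. CPM are TMM-scaled, values after ± are standard errors, and FPKM served only to compare levels between genes. The floor of 3 counts for emb1796 covers counting error in Col only.

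All 25198 gene IDs matched the RefSeq annotation of TAIR10.1; as the build name differs, no coordinates are given. Classes came from product names. Named genes were the 6 highest and 6 lowest called members per mutant with at least 2 CPM and no overlap between libraries, up to 12 called in fha2, up to 4 per class, the 5 highest by FPKM, the 4 least variable, those filtered out, 4 each way per pair of mutants, and those of opposite direction, of which a selection is described. Beside them small groups are given whole, and a few were named after their values were seen. The members, lists and context groups were chosen with earlier results of these data known. Alternatives were RLE factors, total counts, other filters, DESeq2 1.42.0, limma-voom (limma 3.58.1), pairs of genotypes alone, a replicate block, each library left out, and no overlapping genes.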

Additional observations from a re-analysis of the deposited data

How the results depend on the processing

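With total counts, the medians became 0.17 in chr11/17, 0.15 in rlt1/2 and 0.25 in fha2, the counts higher and lower were 49 and 17 in rlt1/2 and 50 and 4 in fha2. As this scaling moves all genes alike, values near 0 changed sign with it; among the genes followed one by one, those that also came to pass the threshold were EMB2769 in chr11/17 (0.28), and EMB1144 (0.28), emb2386 (0.25) and emb2004 (0.26) in rlt1/2. Between mutants the medians with total counts were 0.09 for fha2 against chr11/17 and 0.15 for fha2 against rlt1/2. RLE factors and DESeq2 moved the median in fha2 to -0.02 and -0.01 and that of fha2 against chr11/17 to 0.09 each, and DESeq2 gave 33 higher in fha2 against rlt1/2. Without overlapping genes, which leaves fewer genes, counts higher and lower were 28 and 39 in chr11/17 (median -0.04), 3 and 6 in fha2, 25 and 29 for chr11/17 against rlt1/2 (-0.02), 38 and 29 for fha2 against chr11/17 (0.09) and 30 and 11 for fha2 against rlt1/2; in rlt1/2 24 were lower (-0.10). Leaving out 1 library at a time, the counts were 8 to 12 higher in rlt1/2, 0 to 2 higher and 2 to 7 lower in fha2, and 25 to 33 higher and 7 to 12 lower in fha2 against rlt1/2, and the medians ran from -0.11 to -0.07 in chr11/17, from -0.16 to -0.10 in rlt1/2 and from -0.03 to 0.03 in fha2. Apart from what a smaller set of genes or libraries implies, the cause was not tested. The replicate numbers did not pair the libraries (correlations of deviations from -0.122 to 0.127); with the replicate block 46 were higher and 66 lower in chr11/17, 14 and 41 in rlt1/2, with 5 and 12 in fha2. Crossing the pairing of Col, chosen after seeing the data, gave 48 and 67 in chr11/17 and 15 and 45 in rlt1/2.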
